A study of Homo sapiens with 6 samples.

Results

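The expression of 10 genes that set the pace of the G1 phase of the cell cycle was compared between 231-BR cells and MDA-MB-231 cells. The genes were the 3 CIP/KIP inhibitors of cyclin-dependent kinases (CDKN1A, CDKN1B and CDKN1C), the 4 INK4 inhibitors (CDKN2A, CDKN2B, CDKN2C and CDKN2D) and the 3 D-type cyclins (CCND1, CCND2 and CCND3). They were chosen by symbol, and all 10 were found among the 17039 genes of the expression table. MDA-MB-231 is a triple-negative human breast cancer cell line, from which 231-BR was derived as a brain-seeking variant. Poly(A) RNA was sequenced from 3 samples of each line. Both lines were grown in DMEM with 10% serum and antibiotics, and the medium of 231-BR cells also held G418, so that an effect of G418 and a difference between the lines cannot be told apart. Whether the 3 samples of a line were separate cultures is not stated, so that the p-values measure the spread between these samples, which may be technical.

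D-type cyclins bind CDK4 and CDK6, and the active kinases phosphorylate the retinoblastoma protein RB1, which releases E2F transcription factors and lets the cell enter S phase. INK4 proteins bind CDK4 and CDK6 and keep the D-type cyclins away from them. CIP/KIP proteins bind complexes of cyclins and kinases and above all block CDK2 with cyclin E or cyclin A. In breast cancer this step is the target of the CDK4/6 inhibitor drugs.

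Expression was given by the authors as FPKM, fragments counted relative to transcript length and to the mapped fragments in the library, so that levels can be compared between genes. Sequencing depth is unknown because read counts were not used here. The summed FPKM ran from 465020 to 472007 in the 231-BR libraries and from 486937 to 496420 in the MDA-MB-231 libraries. VIM, an intermediate filament protein of mesenchymal cells, lay between 2273 and 2566 FPKM in every library. ESR1 and PGR, the hormone receptors, did not exceed 1.08 FPKM in any library. ERBB2, the HER2 receptor, averaged 9.88 FPKM in the 231-BR libraries, against 4.95 FPKM in the others. Markers of leukocytes, astrocytes and microglia (PTPRC, GFAP and AIF1) reached at most 0.07 FPKM, and PECAM1, a marker of endothelium, lay between 0.15 and 0.48 FPKM. EPCAM averaged 8.70 FPKM in the 231-BR libraries and 5.06 FPKM in the others, and CD44 averaged 181.2 and 250.6 FPKM. Of the 10 markers listed, 6 were tested, of which 4 were higher in 231-BR cells (VIM, EPCAM, ERBB2 and PECAM1). In these cells 1 was lower (CD44), and 1 did not pass the test (ESR1). Over all genes tested 44.4% were higher and 32.9% were lower.

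CDKN1A was 3.81 times as high in MDA-MB-231 cells as in 231-BR cells, whereas CDKN1C was 5.54 times as high in 231-BR cells. CCND1, by far the most expressed of the 10 genes, was moderately higher in 231-BR cells, and CCND2 and CCND3 were lower. CDKN2D was higher in 231-BR cells, CDKN2C could not be told apart between the lines, and CDKN2A and CDKN2B were at or next to 0 in all libraries. Genes with a mean of at least 0.1 FPKM were compared on the scale log2(FPKM + 0.1) with limma's moderated test, with Benjamini-Hochberg adjustment over all 13465 genes tested. On this scale the change of genes with a low FPKM is understated. In bulk RNA a change in every cell and a change in the share of cells that express a gene cannot be told apart. Of the 10 members, 8 were tested, and 7 of these had an adjusted p under 0.05, as did 77.3% of all genes tested. Among them 3 were higher in 231-BR cells (44.4% of all genes tested) and 4 were lower (32.9%). An absolute log2 fold change over 1 was reached as well by 3 of the 8, CDKN1A, CDKN1C and CCND2, against 15.2% of all genes tested. CDKN1C was the 1 member higher by that much (10.9% of all genes tested), and CDKN1A and CCND2 were the 2 lower by that much (4.34%). CDKN1A and CDKN1C also had a mean of at least 1 FPKM in both lines, and all 3 criteria were met by 6.45% of all genes tested. For 7 of the 8 all libraries of one line lay above all of the other, against 78.4% of all genes tested. The median log2 fold change was -0.15 over the 8 members and 0.08 over all genes tested.

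**Figure D1:**
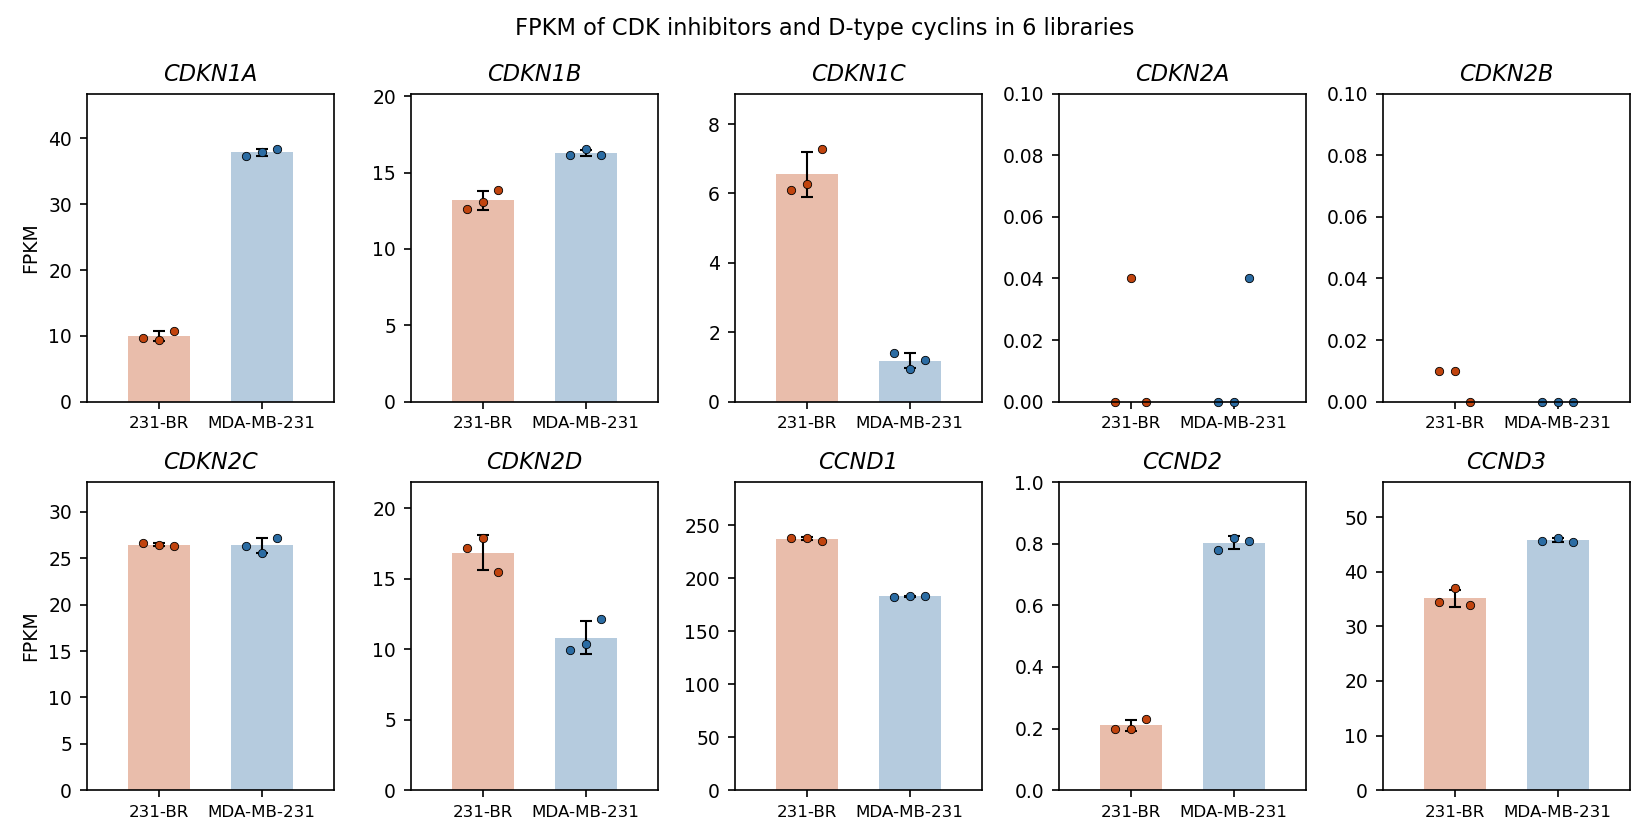
FPKM of the 10 genes in each library, one panel per gene with its own axis from 0. Points are libraries, bars are means and error bars are the SD over 3 libraries, with points only for CDKN2A and CDKN2B. CDKN1A and CDKN1C differ most between the lines among the genes above 1 FPKM, and CDKN2C lies at about 26.4 FPKM in both lines.

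CDKN1A encodes p21, the CIP/KIP inhibitor best known for arresting cells after DNA damage. It lies on chromosome 6 (chr6:36676460-36687339, plus strand, GRCh38). The 231-BR libraries held 9.68, 9.39 and 10.77 FPKM of its transcript, against 37.30, 37.90 and 38.37 FPKM in MDA-MB-231 libraries. Every 231-BR library was thus far below every MDA-MB-231 library. The mean fell from 37.9 ± 0.536 to 9.95 ± 0.728 FPKM (SD, n = 3 each), which limma put at -1.92 ± 0.049 on the log2 scale (SE), with an adjusted p of 3.25e-10. CDKN1A was the only member with a decrease that had a mean of at least 1 FPKM in both lines and an absolute log2 fold change over 1. The 40 neighbouring genes on chromosome 6, 20 on either side among genes with a mean of at least 1 FPKM, had a median log2 fold change of -0.02.

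CDKN1B encodes p27, a CIP/KIP inhibitor whose protein is removed by SKP2 and CKS1B as cells enter S phase. Its level was 12.59, 13.07 and 13.86 FPKM across 231-BR libraries, while MDA-MB-231 libraries showed 16.16, 16.54 and 16.14 FPKM. The lines did not overlap, but the step between them was small beside that of CDKN1A. In limma the log2 fold change amounted to -0.30 ± 0.042 (SE), with an adjusted p of 7.45e-05. On chromosome 12, its 40 neighbouring genes had a median of -0.11.

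CDKN1C encodes p57, the third CIP/KIP inhibitor, and is an imprinted gene that is expressed mainly from the maternal copy. The gene lies on the minus strand of chromosome 11 (chr11:2883213-2885773, GRCh38). Its transcript reached 6.09, 6.28 and 7.28 FPKM among 231-BR libraries but only 1.40, 0.95 and 1.20 FPKM among MDA-MB-231 libraries, again without overlap. The mean rose from 1.18 ± 0.225 to 6.55 ± 0.639 FPKM (SD, n = 3 each), or by 2.38 ± 0.125 on the log2 scale (SE; limma, adjusted p = 5.54e-08). Most of its neighbourhood did not share the increase, since 26 of the 40 neighbouring genes were lower in 231-BR cells and 6 were higher. Their median log2 fold change was -0.34, and over all genes tested 32.9% were lower and 44.4% higher. PHLDA2, the next expressed gene on one side and itself imprinted, fell from 114.5 ± 3.18 to 92.5 ± 5.81 FPKM (SD, n = 3 each; limma, adjusted p = 7.72e-05). TSSC4, the next one on the other side, had a log2 fold change of -0.63.

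**Figure D2:**
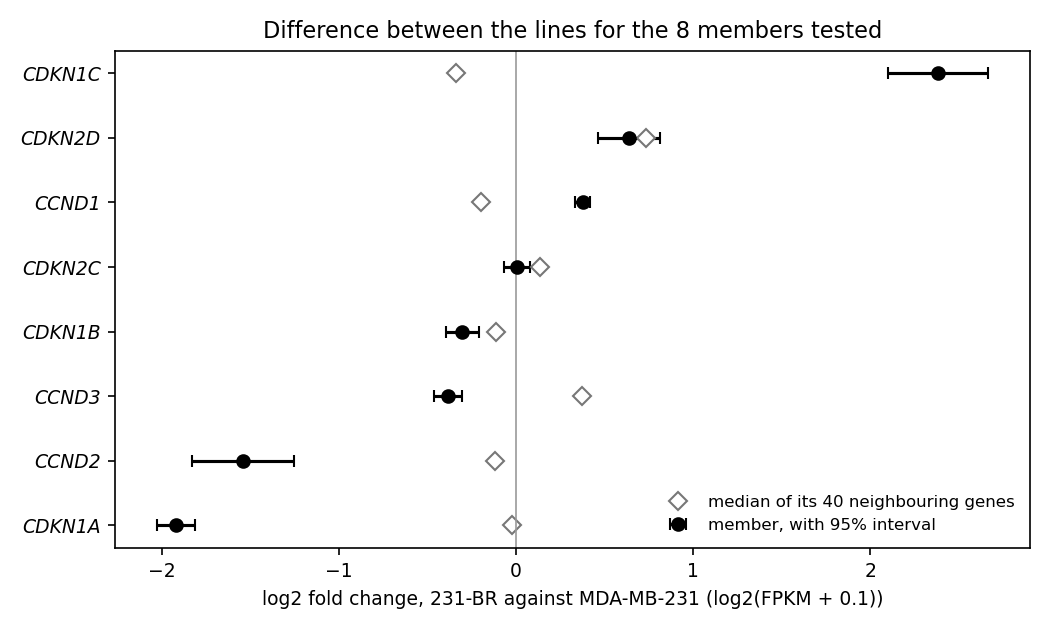
Log2 fold change of the 8 members tested, 231-BR against MDA-MB-231 on the scale log2(FPKM + 0.1). Black points carry the 95% interval from limma, and open diamonds give the median of the 40 neighbouring genes. CDKN2D lies at 0.64 beside a neighbour median of 0.73, whereas CDKN1C lies at 2.38 with a neighbour median of -0.34.

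Promoter sequences from RefSeq (GRCh38.p14) were matched to 7 of the 10 members, and CCND1, CCND2 and CDKN1C were not matched. A pair of them are shown because they belong to the members past the test with the largest decrease and the largest increase among those matched, CDKN1A and CDKN2D. The windows cover the 250 bases before the RefSeq start, and they are printed up to the first base that an exon of the gene covers in GENCODE 29. They lie at chr6:36678464-36678657 on the plus strand and at chr19:10569060-10569229 on the minus strand. Capitals mark GC boxes, the letters GGGCGG or their reverse complement CCGCCC, which SP1 and related factors can bind.
CDKN1A: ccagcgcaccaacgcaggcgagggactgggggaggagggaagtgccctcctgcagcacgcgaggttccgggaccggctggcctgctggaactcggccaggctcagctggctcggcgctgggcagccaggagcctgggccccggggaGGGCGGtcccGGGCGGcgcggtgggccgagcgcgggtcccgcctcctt
CDKN2D: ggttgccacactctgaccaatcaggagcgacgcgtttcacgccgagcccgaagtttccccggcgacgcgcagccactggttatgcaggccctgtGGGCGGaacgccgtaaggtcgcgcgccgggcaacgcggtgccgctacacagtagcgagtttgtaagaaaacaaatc
The 194 bases shown for CDKN1A held 2 GC boxes, and the 170 bases shown for CDKN2D held 1. Over the full 250 bases the counts were 4 for CDKN1A, of which the last pair shares a base, and 2 for CDKN2D. Of the 35116 RefSeq windows of 250 bases, 42.6% held at least 1 GC box on either strand. The CCAAT box, searched on both strands, was found in the full CDKN2D window and in 32.0% of all windows, but not in the CDKN1A window. CACGTG, the E-box bound by MYC and MAX, was in neither window and in 6.34% of all windows. These matches describe the letters of the windows only.

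Of the INK4 genes, CDKN2A encodes p16 and, from another reading frame, p14ARF, and CDKN2B encodes p15. They lie side by side on the minus strand of chromosome 9 (chr9:21967753-21995301 and chr9:22002903-22009363, GRCh38). MDA-MB-231 cells are known to lack CDKN2A in their DNA, which was not measured here. CDKN2A was listed at 0.00, 0.04 and 0.00 FPKM in 231-BR libraries, and MDA-MB-231 libraries listed it at 0.00, 0.00 and 0.04 FPKM. For CDKN2B the listed values were 0.01, 0.01 and 0.00 FPKM in 231-BR libraries and 0.00 FPKM in each MDA-MB-231 library. Both fell short of the filter on low values and were not tested. HACD4 and MTAP, which precede the pair on chromosome 9, reached at most 0.02 FPKM in any library, and MTAP, an enzyme of the methionine salvage pathway, is otherwise expressed in most tissues. Farther out, FOCAD lay between 0.17 and 0.29 FPKM, and MLLT3 between 1.48 and 1.87 FPKM. On the other side, TUSC1 lay between 2.42 and 3.07 FPKM and CAAP1 between 7.97 and 9.46 FPKM, with LOC100506422 between them at 0.35 to 0.48 FPKM. From HACD4 to CDKN2B, the 4 genes of the table in a row were thus under 0.1 FPKM in every library of both lines. Low values were not particular to these 4 genes, since LRRC19 and TEK, farther along the chromosome, reached at most 0.07 and 0.02 FPKM. DMRTA1, the next protein-coding gene beyond CDKN2B, was not among the genes of the table in this stretch, so that its level is unknown. Of the 6 tested genes on the list for this region, which left out LOC100506422, MLLT3 was higher in 231-BR cells. On the same list 2 genes farther from the pair (PLAA and IFT74) were lower and 3 did not pass the test. Over all genes tested 44.4% were higher and 32.9% were lower.

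**Figure D3:**
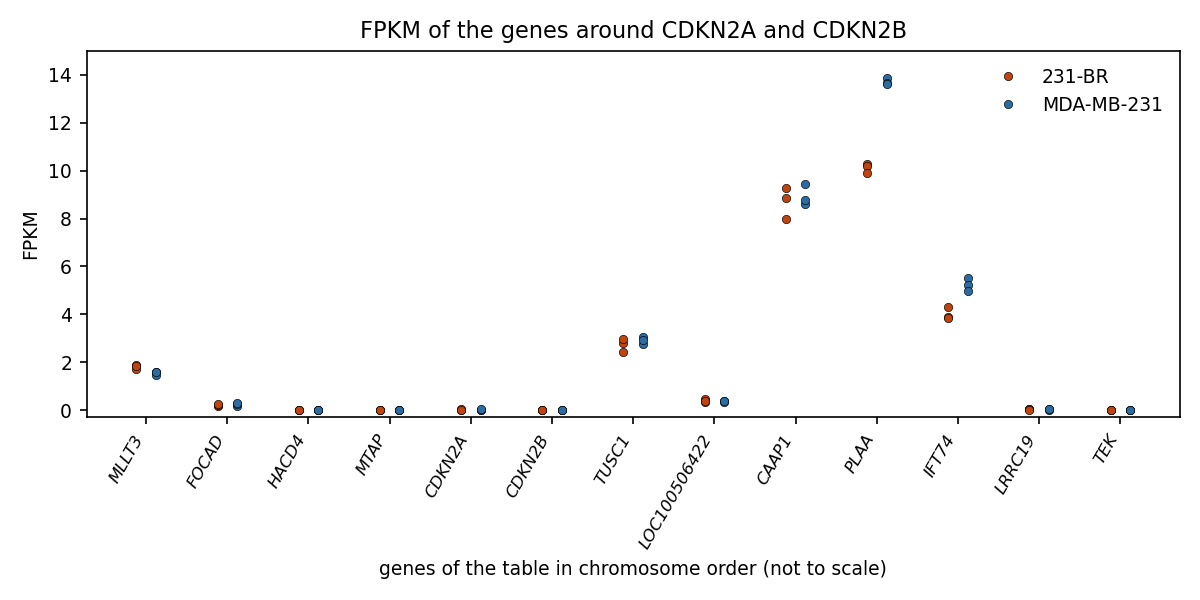
FPKM of the genes around CDKN2A and CDKN2B on chromosome 9, in chromosome order and not to scale, with 1 point per library. HACD4, MTAP, CDKN2A and CDKN2B do not exceed 0.04 FPKM in either line. TUSC1 and CAAP1, farther along among the genes of the table, are expressed in both.

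CDKN2C encodes p18 and was the most expressed INK4 gene. 231-BR libraries had 26.61, 26.40 and 26.33 FPKM of it, close to the 26.37, 25.53 and 27.23 FPKM of MDA-MB-231 libraries. The ranges overlapped, and the difference between the lines was smaller than the spread of the MDA-MB-231 libraries. The log2 fold change was 0.004 with a 95% interval from -0.067 to 0.076 (adjusted p = 0.908 from limma). After median-of-ratios scaling of the libraries it was -0.078 with an adjusted p of 0.044.

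CDKN2D encodes p19 and lies on the minus strand of chromosome 19 (chr19:10566462-10569059, GRCh38). Its 231-BR values were 17.17, 17.92 and 15.47 FPKM, and those of MDA-MB-231 libraries were 9.93, 10.36 and 12.17 FPKM. All 231-BR libraries were higher, with more spread within each line than for CDKN2C in 231-BR cells. The mean rose from 10.8 ± 1.19 to 16.9 ± 1.26 FPKM (SD, n = 3 each), or by 0.64 ± 0.078 on the log2 scale (SE; limma, adjusted p = 3.02e-05). Most of the genes around CDKN2D rose too. Of its 40 neighbouring genes 35 were called higher in 231-BR and 3 lower, against 44.4% and 32.9% of all genes tested. Their median log2 fold change was 0.73. KRI1, the neighbour on one side, had a log2 fold change of 1.10, and AP1M2, the one on the other side, had 0.21. Their part in the result for CDKN2D was not tested.

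CCND1 encodes cyclin D1, the D-type cyclin most often amplified in breast cancer, and lies on chromosome 11 (chr11:69641087-69654474, plus strand, GRCh38). The 231-BR libraries held 238.19, 237.98 and 235.37 FPKM of CCND1, compared with 182.13, 183.27 and 182.80 FPKM for MDA-MB-231 libraries. The libraries of each line were close to each other, and the lines were well apart. The mean rose from 182.7 ± 0.573 to 237.2 ± 1.57 FPKM (SD, n = 3 each), which was 1.30 times as high, or 0.38 ± 0.020 on the log2 scale (SE; limma, adjusted p = 5.01e-08). On chromosome 11, its 40 neighbouring genes had a median log2 fold change of -0.20. MYEOV, the next expressed gene before CCND1, moved the other way, from 93.2 ± 0.699 down to 39.8 ± 1.35 FPKM (SD, n = 3 each; limma, adjusted p = 2.15e-10). LTO1, the next expressed gene after CCND1, had a log2 fold change of -0.09 and did not pass the test.

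CCND3 encodes cyclin D3 and was second in level among the D-type cyclins. Levels of 34.40, 36.96 and 33.95 FPKM were found in 231-BR libraries and of 45.67, 46.24 and 45.52 FPKM among MDA-MB-231 libraries, without overlap. In limma the difference was -0.38 ± 0.035 on the log2 scale (SE), with an adjusted p of 3.06e-06, close in size to that of CCND1 and opposite in sign. CCND3 fell although 27 of its 40 neighbouring genes on chromosome 6 were called higher in 231-BR, with a median of 0.37. Another 6 of the 40 neighbours were called lower, against shares of 44.4% higher and 32.9% lower over all genes tested.

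CCND2 encodes cyclin D2 and was expressed at under 1 FPKM in both lines. Values of 0.20, 0.20 and 0.23 FPKM were listed for 231-BR libraries, compared with 0.78, 0.82 and 0.81 FPKM for MDA-MB-231 libraries. The level was low, but the ranges were far apart, and the mean was 3.83 times as high in MDA-MB-231 cells. On the log2 scale the difference was -1.54 ± 0.128 (SE; limma, adjusted p = 1.63e-06). The 40 genes around it on chromosome 12 had a median of -0.12.

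By mean FPKM the order in 231-BR cells was CCND1, CCND3, CDKN2C, CDKN2D, CDKN1B, CDKN1A, CDKN1C, CCND2, CDKN2A and CDKN2B. In MDA-MB-231 cells it was CCND1, CCND3, CDKN1A, CDKN2C, CDKN1B, CDKN2D, CDKN1C and CCND2, followed by the same pair. Neighbours in either order did not overlap across the libraries of the line, except CDKN2A and CDKN2B, which cannot be ordered.

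Summed over each family, the D-type cyclins came to 272.8, 275.1 and 269.6 FPKM per 231-BR library and to 228.6, 230.3 and 229.1 FPKM per MDA-MB-231 library. The sum of the CIP/KIP inhibitors was 28.36, 28.74 and 31.91 FPKM against 54.86, 55.39 and 55.71 FPKM. Neither sum overlapped between the lines, with more D-type cyclin and less CIP/KIP transcript in 231-BR cells. The ratio of the 2 sums, in which a constant factor per library cancels, was 9.21 ± 0.664 for 231-BR and 4.15 ± 0.029 for MDA-MB-231 (SD, n = 3 each). The sum of the INK4 inhibitors was 43.3 ± 1.35 FPKM against 37.2 ± 1.94 FPKM (SD, n = 3 each). The ratio of D-type cyclins to INK4 inhibitors, 6.29 ± 0.135 against 6.17 ± 0.322 (SD, n = 3 each), overlapped between the lines. Exact 2-sided permutation tests gave p = 0.1 for the 3 sums and for the ratio to CIP/KIP inhibitors, and p = 0.8 for the ratio to INK4 inhibitors. With 3 libraries against 3, 0.1 is the smallest p that such a test can give, so that none of these could pass 0.05.

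The make-up of the families differed as well. CDKN1A made up 34.1%, 32.7% and 33.8% of the CIP/KIP sum across 231-BR libraries, and MDA-MB-231 libraries had 68.0%, 68.4% and 68.9%. CDKN1B was the largest part in 231-BR cells, with a mean of 44.4% against 29.4%, and CDKN1C had 22.0% against 2.14%. The share of CCND1 in the D-type cyclin sum was 87.0% ± 0.476 for 231-BR and 79.7% ± 0.106 for MDA-MB-231 (SD, n = 3 each), and CCND3 held most of the rest. CDKN2D held 38.9% of the INK4 sum against 29.0% in the parental line.

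**Figure D4:**
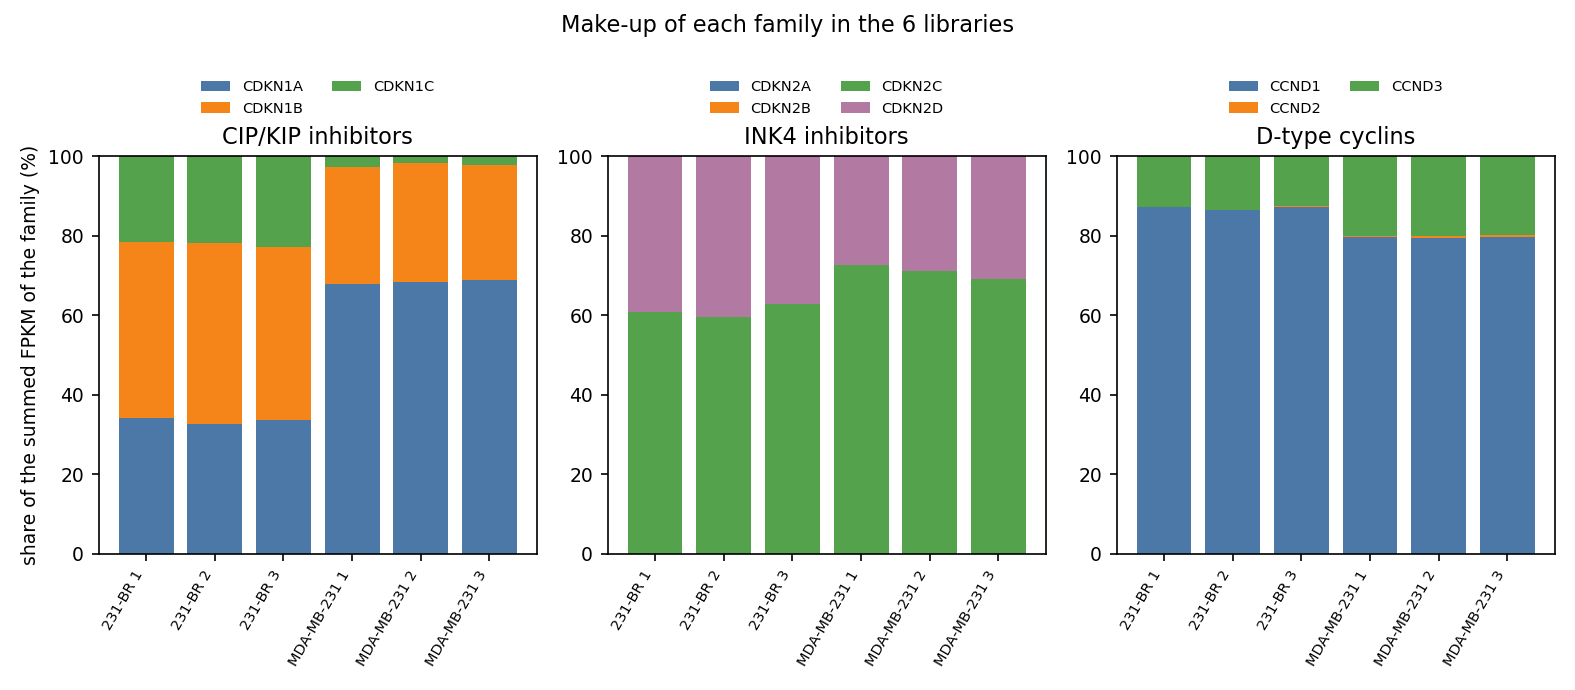
Share of each gene in the summed FPKM of its family, in percent, with 1 bar per library. CDKN1A holds on average 33.5% of the CIP/KIP bars of 231-BR cells and 68.4% of those of MDA-MB-231 cells, and CCND1 holds most of every D-type cyclin bar.

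Of 16 genes of the G1 machinery that these proteins act on, 10 were lower in 231-BR cells, 4 were higher and 2 did not pass the test, where 32.9% of all genes tested were lower and 44.4% higher. CDK4 fell from 96.7 ± 1.43 to 80.1 ± 1.75 FPKM and CDK6 rose from 15.4 ± 0.486 to 18.5 ± 0.520 FPKM (SD, n = 3 each). RB1, the retinoblastoma protein, fell with a log2 fold change of -0.59, and its relative RBL1 with -0.66. Another relative, RBL2, rose with 0.34. E2F1 and E2F2, the transcription factors held back by RB1, fell with log2 fold changes of -0.39 and -0.62. E2F3 and E2F4 fell with -0.10 and -0.29, and E2F5 rose with 0.45. TFDP2, a partner of the E2F factors, had the largest increase of the list, 1.15. CCNE1, which encodes cyclin E1, fell with a log2 fold change of -0.29. CDK2 and CCNE2 had log2 fold changes of -0.07 each and did not pass the test, whereas both passed it as lower after median-of-ratios scaling and after quantile normalization, and CDK2 had 0.002 after rescaling to an equal sum. The count of lower genes was between 8 and 11 with each library left out, 12 after median-of-ratios scaling, 11 after quantile normalization and 8 after rescaling to an equal sum.

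Of 15 genes that act in the breakdown of these proteins, 6 were higher and 6 were lower, beside 44.4% higher and 32.9% lower among all genes tested. The split moved with the scaling, to 4 higher after median-of-ratios scaling and 9 higher after rescaling to an equal sum, with 6 lower in both. SKP2, which marks p27 for degradation, rose with a log2 fold change of 0.35, and its cofactor CKS1B fell with -0.45. GSK3B, a kinase known to phosphorylate cyclin D1 ahead of its degradation, rose with 1.35. FBXO4, an F-box protein linked to cyclin D1, rose from 1.82 ± 0.075 to 4.14 ± 0.595 FPKM (SD, n = 3 each). Over the list the median was 0.11.

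Among 26 transcription factors and chromatin proteins known to act on these genes, 13 were higher and 10 were lower, near the 44.4% and 32.9% of all genes tested, with a median log2 fold change of 0.08. After median-of-ratios scaling 11 were higher and 12 were lower. MYC, which can repress CDKN1A and CDKN2B together with ZBTB17, rose from 36.5 ± 0.661 to 84.6 ± 0.718 FPKM (SD, n = 3 each). FOXO4 and SMAD4 rose with log2 fold changes of 1.76 and 1.03, the first of them from a mean of 0.387 FPKM. ID1, a repressor of CDKN2A, fell from 128.7 ± 6.94 to 47.7 ± 2.38 FPKM (SD, n = 3 each). ETS2 and SMAD3 fell with log2 fold changes of -1.15 and -0.83.

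Of 24 genes that E2F factors drive or that mark dividing cells, 17 were lower in 231-BR cells, 5 were higher and 2 did not pass the test, against 32.9% lower and 44.4% higher over all genes tested. The median of the list was -0.25. MYBL2 fell from 93.7 ± 0.898 to 39.3 ± 1.01 FPKM (SD, n = 3 each), TYMS fell from 253.0 ± 4.59 to 126.2 ± 1.84 FPKM (SD, n = 3 each), and MCM3 had a log2 fold change of -0.79. Under the 3 scalings between 16 and 19 genes of the list were lower and between 4 and 6 were higher. No gene of the list rose by over 0.58 on the log2 scale. Growth rates and cell cycle phases were not measured in these libraries.

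**Figure D5:**
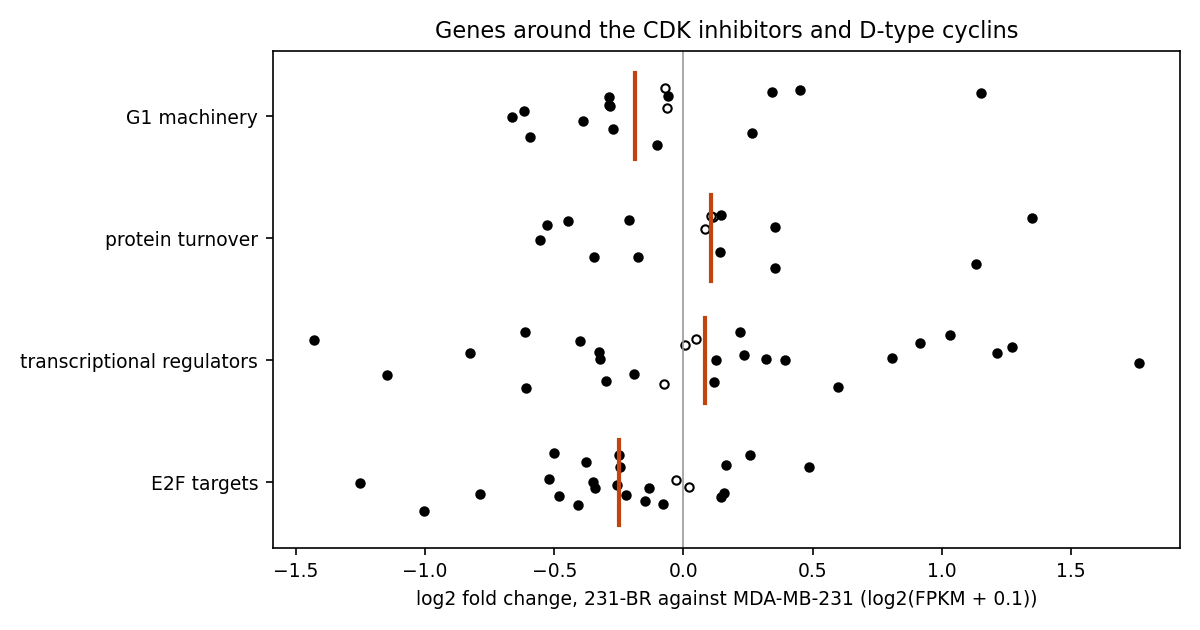
Log2 fold change of the genes of 4 lists, 231-BR against MDA-MB-231 on the scale log2(FPKM + 0.1), with vertical scatter for legibility. Filled points passed the test, open points did not, and the vertical bars are the list medians, of which those of the G1 machinery (-0.19) and the E2F targets (-0.25) lie below 0.

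Among the genes most like CDKN1A over the 6 libraries, by the root-mean-square difference of centred log2 values among 11124 genes with a mean of at least 1 FPKM, were TMEM132A (0.063) and VLDLR (0.077). VLDLR, a lipoprotein receptor, had a mean of 1.25 ± 0.021 FPKM against 4.84 ± 0.166 FPKM in the parental line (SD, n = 3 each). Those most like CCND1 were NFE2L1, DNAJC19 and CPSF7, with differences from 0.011 to 0.012. Because the libraries fall into 2 lines, this likeness mostly reflects an equal fold change between the lines.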

How the data were processed

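Poly(A) RNA of 3 samples of each line was sequenced as paired reads on a BGISEQ-500. The authors filtered the reads with SOAPnuke, mapped them with HISAT2 2.0.4 to the genome and with Bowtie2 2.2.5 to a gene set, and deposited FPKM values with 2 decimals. The build in the submitters' processing notes is GRCh38.p12, and the program that computed the FPKM is not given in the sources used here. The 6 files of single samples held the same values as the table. The values are rounded too coarsely to recover reads, and no test on counts was run. Libraries were grouped by title, since the label for the cell line counts upward with the replicate (231, 232 and 233).

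For genes with a mean of at least 0.1 FPKM, a linear model of log2(FPKM + 0.1) on the line was run in limma 3.58.1 (R 4.3.3), its variances moderated by eBayes along a trend in the mean, with Benjamini-Hochberg adjustment over all genes tested. The fit was tested on simulated data. The members and lists were chosen with earlier results of these data known. Some genes that the rules name, and 1 list, are not reported here. Named from each list were a fixed set of genes and the 3 largest changes in each direction past the test, over 0.58 on the log2 scale and with a mean of at least 1 FPKM in either line. Gene positions came from GENCODE 29, gene order and promoters from RefSeq (GRCh38.p14). Genes beside CDKN1C, CDKN2D and CCND1, and CD44, EPCAM, RBL2, E2F3, E2F4, E2F5, PLAA and IFT74, were named after their values were seen. Python 3.11.15 with pandas 2.3.3 served for the sums and matplotlib 3.10.9 for the figures.

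The alternatives were pseudocounts of 1 and 0.01, no filter, a mean of at least 1 FPKM, median-of-ratios scaling, quantile normalization, rescaling to an equal sum, untrended eBayes, a block for the replicate number, and each library left out in turn.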

Additional observations from a re-analysis of the deposited data

How the results depend on the processing

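The direction and call of CDKN1A, CDKN1B, CDKN1C, CDKN2D, CCND1, CCND2 and CCND3 were the same under all alternatives, except that CCND2 could not be tested with a minimum mean of 1 FPKM. The count of higher members stayed at 3. The count of lower members was 4, except for 3 with that minimum and 5 after median-of-ratios scaling, where CDKN2C was added. CDKN2C, not past the test as reported, changed sign: it was -0.078 after median-of-ratios scaling (adjusted p = 0.044), -0.051 after quantile normalization and between -0.019 and 0.027 with each library left out. The log2 ratios of summed FPKM, -0.90 for CIP/KIP inhibitors, 0.22 for INK4 inhibitors and 0.25 for D-type cyclins, moved with the scaling but kept their sign. They were -0.98, 0.14 and 0.17 after median-of-ratios scaling, -0.99, 0.15 and 0.36 after quantile normalization, and -0.83, 0.29 and 0.32 after rescaling to an equal sum. With each library left out they lay between -0.95 and -0.87, 0.20 and 0.26, and 0.24 and 0.26. Over all genes tested the median was 0.08 as reported, -0.002 after median-of-ratios scaling, -0.06 after quantile normalization and 0.15 after rescaling to an equal sum. Small changes such as that of CDKN1B, -0.39, -0.39 and -0.24 under these 3 scalings, are best read against that median.

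The replicate number as a block gave the same 3 higher and 4 lower members, and 10502 genes called in place of 10406. The numbers do not pair the libraries: deviations from the line means correlated between same-numbered libraries at 0.09, -0.04 and -0.11, and not every library correlated best with its own number. Depth is unknown, so that for CDKN2A, CDKN2B and MTAP the data give a level near 0 but no limit of detection.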

Other observations

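CDKN3, a phosphatase that acts on CDK2 and shares the naming of the inhibitors but belongs to neither family, was chosen after its values were seen. It had 145.50, 145.54 and 142.89 FPKM in the 231-BR libraries and 128.07, 131.77 and 136.47 FPKM in the MDA-MB-231 libraries, more than any CIP/KIP or INK4 gene in every library. The lines did not overlap, as was the case for 78.4% of all genes tested. The difference was small, with a log2 fold change of 0.13 where the median over all genes tested was 0.08. It was not examined under the other scalings.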
